A study of Mus musculus with 6 samples.

Results

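The genes described here are 10 that fibroblasts and related mural cells use to build and remodel connective tissue: 7 matrix glycoproteins and proteoglycans (Fn1, Postn, Tnc, Sparc, Thbs2, Dcn and Lum), the cell-surface protease Fap, and the platelet-derived growth factor receptors Pdgfra and Pdgfrb. They were chosen by name, and 10 of 10 were on the array, with 22 probes in all, among 22260 genes that could be measured. Expression was read in ureters of mice on a C57BL/6N background, 2 months old, collected 4 days after unilateral ureteral obstruction (UUO), which blocks the outflow of urine from one kidney. Of these, 3 mice were labelled Col17a1-WT, all male, and 3 Col17a1-KO, of which replicate 3 was female and the others male. All 6 ureters had been obstructed, so the groups hold no unobstructed ureter, and the labels do not say how the Col17a1 allele was altered or whether mice shared a litter.

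After injury, fibroblasts deposit a provisional matrix. Fibronectin (Fn1) is its early scaffold, to which cells bind through integrins. Periostin (Postn), tenascin C (Tnc), SPARC and thrombospondin 2 (Thbs2) are matricellular proteins: they tune adhesion, collagen assembly and protease activity rather than bear load. Decorin (Dcn) and lumican (Lum) are small leucine-rich proteoglycans that bind collagen fibrils and limit their width. The PDGF receptors are tyrosine kinases: Pdgfra marks fibroblasts, Pdgfrb marks pericytes and other mural cells as well, and both can drive the growth of matrix-forming cells. Collagen XVII, the product of Col17a1, is a transmembrane collagen of basal epithelial cells.

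The probes are 60-base oligonucleotides. Of the 22, 5 map over a genomic span longer than the probe, as for a probe that crosses a splice junction and reads joined exons. They are printed because such probes read the spliced message, and because both of the Fn1 probes among them enter the comparison of probes within arrays. They are given in lower case with no base marked, 5′ to 3′ on the strand of the gene, with their mm9 positions; all lie on the minus strand.
Fn1 A_51_P100856, chr1:71637422-71639659: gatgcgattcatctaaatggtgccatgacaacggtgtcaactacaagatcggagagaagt
Fn1 A_55_P2743309, chr1:71694694-71695800: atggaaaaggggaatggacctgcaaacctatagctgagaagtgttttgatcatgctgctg
Tnc A_52_P355169, chr4:63674248-63675011: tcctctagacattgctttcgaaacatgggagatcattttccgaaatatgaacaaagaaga
Sparc A_52_P101852, chr11:55209449-55212106: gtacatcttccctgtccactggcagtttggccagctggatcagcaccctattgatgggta
Thbs2 A_51_P461877, chr17:14804526-14805789: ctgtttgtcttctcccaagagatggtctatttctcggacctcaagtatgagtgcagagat
The probe of Fn1 at 71694694 lies nearest the 5′ end of the gene and the probe at 71637422 toward its 3′ end. Whether the other 17 probes lie in coding sequence or in a UTR was not examined, since no mm9 annotation was at hand.

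Values are log2 signals relative to each array's 75th percentile, so a value of 0 is a signal at that percentile, and a difference of 1 is a doubling. The 75th-percentile signals ran from 143.7 to 164.9, no spot was saturated, and between-array correlations across genes ran from 0.977 to 0.993. The targeted gene did not match the label in direction, since both of its probes were higher in the KO-labelled group: they differed by 1.65 ± 0.48 and 1.10 ± 0.19 (KO-labelled minus WT, log2, with standard error; limma, adjusted p = 0.450 and 0.378). The group is therefore called KO-labelled, and every direction rests on the label. WT replicate 2 stood apart, with kidney tubule and podocyte transcripts at a list mean of 1.74 above their own average, against -0.48 to -0.22 on the other 5 arrays. For the members and the marker lists, where leaving out an array moved a value far, the value or range without it is given. For the related genes no value without an array is given.

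None of the 10 genes differed between the groups beyond the spread of the arrays. At the brightest probe of each gene, the differences ran from -0.31 for Fap to 0.14 for Lum, with 7 genes lower and 3 higher in the KO-labelled ureters and a median of -0.08, against a median of -0.000871 over all genes. Of all genes, 50.2% were lower. No member probe passed an adjusted p of 0.05 in limma (0 of 22), as for all probes (0%, 0 of 35069), and the members' adjusted p-values lay between 0.666 and 0.998. At an unadjusted p under 0.05 there were 0 of 22 member probes and 0 of 10 member genes, where 9.26% of all probes and 8.95% of all genes stood. The groups were free of overlap for 0 of 10 members, against 15.4% of all genes (8.13% lower and 7.28% higher). In whole-ureter RNA, fewer cells of a type and less RNA per cell cannot be told apart.

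**Figure D1:**
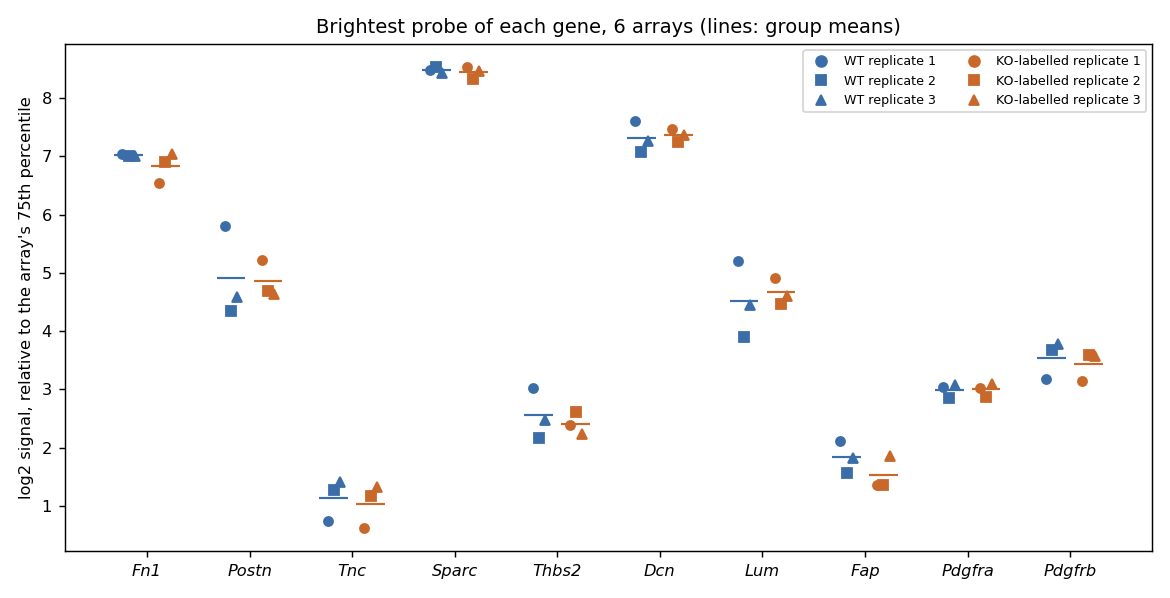
Log2 signal relative to the array's 75th percentile (y axis) at the brightest probe of each of the 10 genes (x axis), 1 point per array and a line at each group mean. The WT and KO-labelled points overlap for every gene, and the widest spread is that of Postn within WT, from 4.34 to 5.80.

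The intervals show which differences these arrays could still hide. For Sparc and Pdgfra the 95% intervals of the difference were -0.30 to 0.22 and -0.28 to 0.29, so a doubling or a halving lay well outside both. For Postn the interval was -1.0 to 0.90 and for Lum -0.65 to 0.93, so changes of close to a doubling lay inside both. The arrays therefore bound Sparc and Pdgfra tightly and Postn and Lum loosely.

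**Figure D2:**
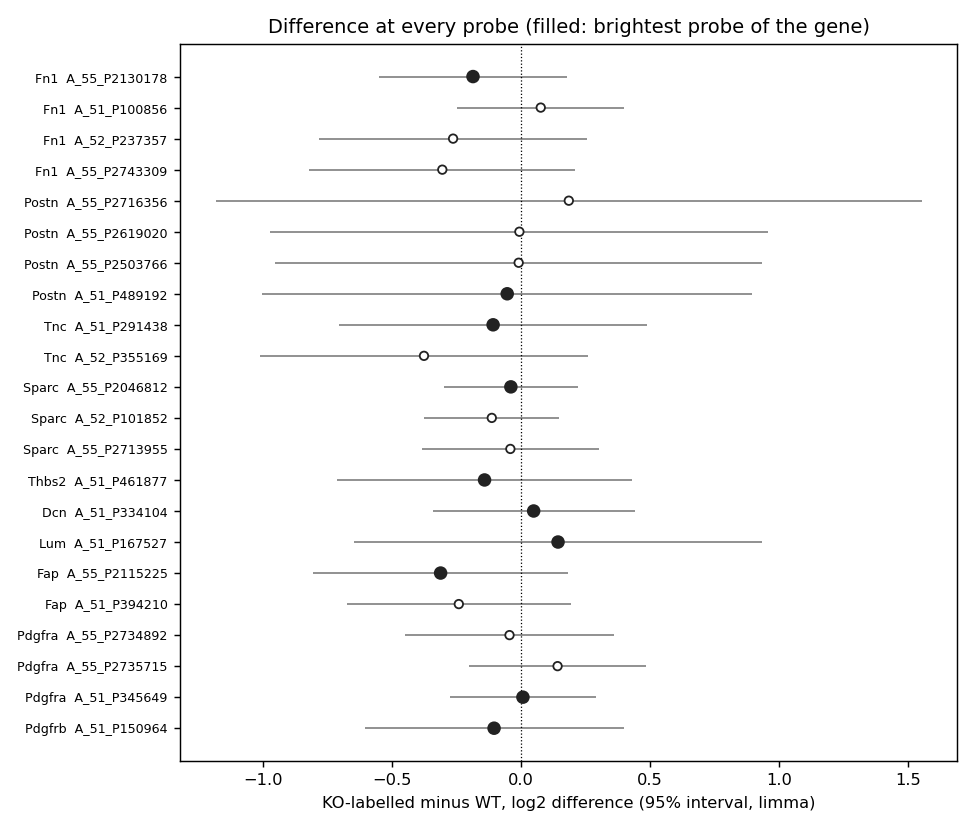
Difference KO-labelled minus WT (x axis, log2) at all 22 probes (y axis, gene and probe), with 95% intervals from limma over 3 arrays a group; filled points are the brightest probe of each gene. Every interval crosses 0, and the intervals of the 4 Postn probes are the widest.

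Fibronectin was read by 4 probes. The brightest, A_55_P2130178 at chromosome 1, 71632116 to 71632175 (mm9), stood at 7.04, 7.0 and 7.01 in WT replicates 1 to 3 and at 6.54, 6.90 and 7.04 in the KO-labelled ureters. The WT arrays were almost level, and the low value belonged to KO-labelled replicate 1, while replicate 3 was as high as any WT array. The difference was -0.19 ± 0.15 (limma, adjusted p = 0.726), but -0.04 without KO-labelled replicate 1 and -0.29 without KO-labelled replicate 3. The 5′ probe A_55_P2743309 differed by -0.30 ± 0.21, and A_52_P237357, which is annotated to an Ensembl transcript, by -0.26 ± 0.22 (adjusted p = 0.684 and 0.728). KO-labelled replicates 1 and 3 set the size of both: without replicate 3 they were -0.52 and -0.41 (adjusted p = 0.260 and 0.468), and without replicate 1 they were -0.14 and -0.03. The junction probe A_51_P100856 differed by 0.08 ± 0.13 (adjusted p = 0.881), with values of 3.29, 3.17 and 3.33 in WT and 3.11, 3.46 and 3.44 in KO-labelled ureters.

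The offset between 2 probes within one array does not depend on how the arrays are scaled, so it was compared as well. The signal of A_55_P2130178 minus that of A_51_P100856 was 3.75, 3.83 and 3.68 in WT and 3.43, 3.44 and 3.60 in the KO-labelled ureters. All WT arrays lay above all KO-labelled arrays, with a difference of -0.26 (WT 3.75 ± 0.08, KO-labelled 3.49 ± 0.10, SD, n = 3). The two-sided exact permutation test gave p = 0.1, the smallest that 3 arrays against 3 allow. After Benjamini-Hochberg adjustment over the 4 probe pairs tested it was 0.4. With so few arrays no offset could have passed, so the test cannot decide whether this one differed. The offsets of A_55_P2130178 from the other Fn1 probes overlapped between groups and differed by 0.12 and 0.08 (exact permutation p = 0.5 and 0.7). Whether any offset between Fn1 probes differed between the groups is therefore not settled by this test. The offset from A_51_P100856 separated the groups on these arrays, and its difference stayed at -0.32 to -0.22 with each array left out in turn.

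**Figure D3:**
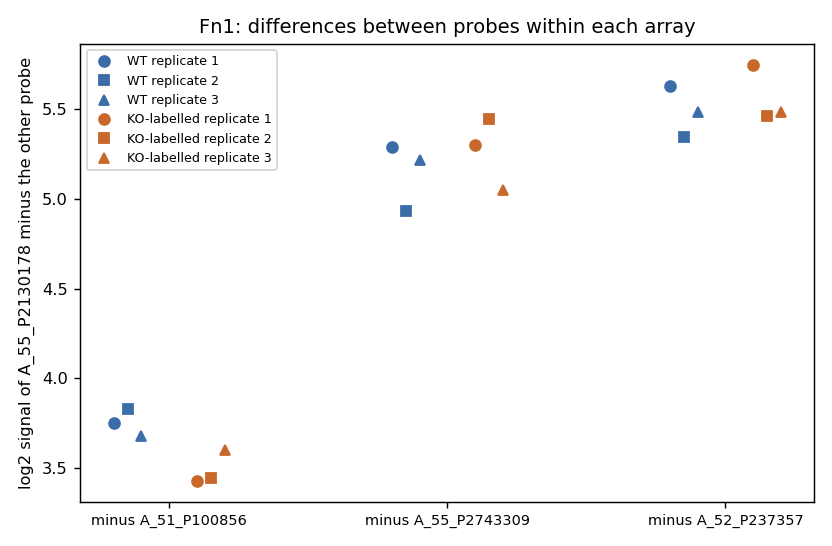
Log2 signal of the brightest Fn1 probe minus that of each other Fn1 probe on the same array (y axis), by array. Only the group differences are of interest, since the height of each column depends on the probes; against A_51_P100856 the WT arrays sit at 3.68 to 3.83 and the KO-labelled arrays at 3.43 to 3.60, and in the other columns the groups overlap.

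Periostin, a matricellular protein that binds integrins, varied more between mice than any other member. At its brightest probe, A_51_P489192 on chromosome 3 at 54194483 to 54194542 (mm9), it stood at 5.80, 4.34 and 4.58 in WT and at 5.23, 4.70 and 4.64 in KO-labelled ureters. WT replicate 1 was the highest and WT replicate 2 the lowest, so the KO-labelled values lay inside the WT range. The difference was -0.05 ± 0.39 (limma, adjusted p = 0.976). Without WT replicate 1 it was 0.39 and the groups no longer overlapped, but the test was not passed (adjusted p = 0.495). Without WT replicate 2 it was -0.33. The other 3 probes differed by 0.19, -0.01 and -0.01, and WT replicate 1 was the highest array at all 4.

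Tenascin C, an anti-adhesive glycoprotein that appears after injury, was read by 2 probes on chromosome 4. The brighter one, A_51_P291438 at 63620819 to 63620864 (mm9), stood at 0.75, 1.27 and 1.42 in WT and at 0.62, 1.17 and 1.32 in KO-labelled ureters. In each group replicate 1 was the lowest, and the groups overlapped throughout, with a difference of -0.11 ± 0.25 (limma, adjusted p = 0.916). The junction probe A_52_P355169 had values of 0.45, 1.09 and 0.90 against 0.03, 0.39 and 0.89, a difference of -0.38 ± 0.26 that was the furthest from 0 of all 22 (adjusted p = 0.683). Without KO-labelled replicate 3 it was -0.60 (adjusted p = 0.345), without WT replicate 1 it was -0.56, without WT replicate 2 it was -0.23, and without KO-labelled replicate 1 it was -0.17.

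SPARC, a collagen-binding matricellular protein, varied least among the members. Its brightest probe, A_55_P2046812 on chromosome 11 at 55208939 to 55208998 (mm9), stood at 8.48, 8.53 and 8.42 in WT and at 8.53, 8.33 and 8.46 in KO-labelled ureters. The range over the 6 arrays was 0.20, the smallest among the members, where the median gene ranged over 0.57. The difference was -0.04 ± 0.11 (limma, adjusted p = 0.931), and those of its other probes were -0.11 and -0.04. Thrombospondin 2, which binds matrix metalloproteinase 2 and helps its removal, had 1 probe. It stood at 3.03, 2.16 and 2.47 in WT and at 2.39, 2.61 and 2.24 in KO-labelled ureters, a difference of -0.14 ± 0.24 (adjusted p = 0.875). The Thbs2 difference was 0.10 without WT replicate 1 and -0.34 without WT replicate 2.

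Decorin and lumican are neighbours on chromosome 10, and each had 1 probe. Decorin, at 96980233 to 96980292 (mm9), had values of 7.61, 7.07 and 7.25 in WT and of 7.47, 7.25 and 7.36 in KO-labelled ureters. The difference was 0.05 ± 0.16 (limma, adjusted p = 0.942). Lumican, at 97035210 to 97035269, stood at 5.20, 3.90 and 4.45 in WT and at 4.91, 4.46 and 4.61 in KO-labelled ureters, a difference of 0.14 ± 0.33 (adjusted p = 0.914). For both genes WT replicate 1 was the highest array and WT replicate 2 the lowest. Without WT replicate 1 the lumican groups no longer overlapped (difference 0.49, adjusted p = 0.453), and without WT replicate 2 the difference was -0.17.

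Fap, a serine protease on the surface of activated fibroblasts, had the lowest difference among the brightest probes. Its probe A_55_P2115225 on chromosome 2 at 62339001 to 62339060 (mm9) stood at 2.12, 1.57 and 1.83 in WT and at 1.36, 1.37 and 1.86 in KO-labelled ureters. KO-labelled replicates 1 and 2 lay below every WT array, while replicate 3, the female, was higher than 2 of the 3 WT arrays. The difference was -0.31 ± 0.21, or 0.806 times the WT level (limma, adjusted p = 0.666). The second probe, A_51_P394210, differed by -0.24 ± 0.18. Among the male mice alone, without KO-labelled replicate 3, the first probe differed by -0.48 and the groups no longer overlapped, but the test was not passed (adjusted p = 0.351). That probe differed by -0.45 without WT replicate 2. It differed by -0.17 without WT replicate 1, and by -0.23 without KO-labelled replicate 1 or without KO-labelled replicate 2.

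The PDGF receptors showed no call either. Pdgfra, at its brightest probe on chromosome 5 (75593888 to 75593947, mm9), stood at 3.04, 2.86 and 3.07 in WT and at 3.03, 2.88 and 3.09 in KO-labelled ureters. The difference was 0.01 ± 0.12 (limma, adjusted p = 0.988). The dimmer Pdgfra probes, annotated to a non-coding transcript and to a further coding variant, differed by -0.04 and 0.14. Pdgfrb on chromosome 18 stood at 3.18, 3.67 and 3.78 in WT and at 3.14, 3.59 and 3.58 in KO-labelled ureters, with the lowest value of each group in replicate 1. Its difference was -0.10 ± 0.21 (adjusted p = 0.900), but -0.29 without WT replicate 1 and 0.04 without KO-labelled replicate 1. Within arrays, the signal of Pdgfra minus that of Pdgfrb differed by 0.11 between the groups (two-sided exact permutation p = 0.6), within the spread of the arrays.

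The ligands of these receptors likewise showed no call. Pdgfa, Pdgfb, Pdgfc and Pdgfd differed by -0.13, -0.04, -0.24 and -0.11, with adjusted p-values of 0.652 to 0.976 in limma, and 0 of 4 had groups without overlap. Of 18 genes that carry the signal from the receptors or bind them, 11 were lower and 7 higher, with a median of -0.08, and 1 had an unadjusted p under 0.05, where 8.95% of all genes did, or 0 after adjustment. That gene was Nrp1, a co-receptor of PDGF and VEGF, at -0.38 ± 0.13 (adjusted p = 0.499), but its 7 probes ran from -0.47 to 0.53. Plcg1, Pik3ca and Src, a phospholipase and 2 kinases of the pathway, followed at 0.35, 0.35 and 0.29 (adjusted p = 0.553, 0.553 and 0.574), while other probes of Plcg1 and Src reached -0.14 and -0.20.

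Several members shared the arrays on which they were highest and lowest. Postn, Lum, Dcn and Thbs2 were highest in WT replicate 1 and lowest in WT replicate 2: relative to its own mean over the arrays, Postn stood at 0.92 and -0.54, Lum at 0.61 and -0.69, Thbs2 at 0.55 and -0.32, and Dcn at 0.27 and -0.26. Tnc and Pdgfrb ran differently, with WT replicate 3 highest (0.33 and 0.29) and KO-labelled replicate 1 lowest (-0.47 and -0.35), and with WT replicate 1 low as well (-0.34 and -0.31). Sparc and Pdgfra stayed close to their means, and the value furthest from the mean was -0.13 (log2) for each. Fap was highest in WT replicate 1 (0.44) and lowest in KO-labelled replicate 1 (-0.33), and both extremes of Fn1 lay in the KO-labelled group, at 0.12 in replicate 3 and -0.38 in replicate 1. Over the 10 genes, the median range across arrays was 0.70, against 0.57 for all genes. These patterns were seen in the data and are a description of 6 arrays.

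**Figure D4:**
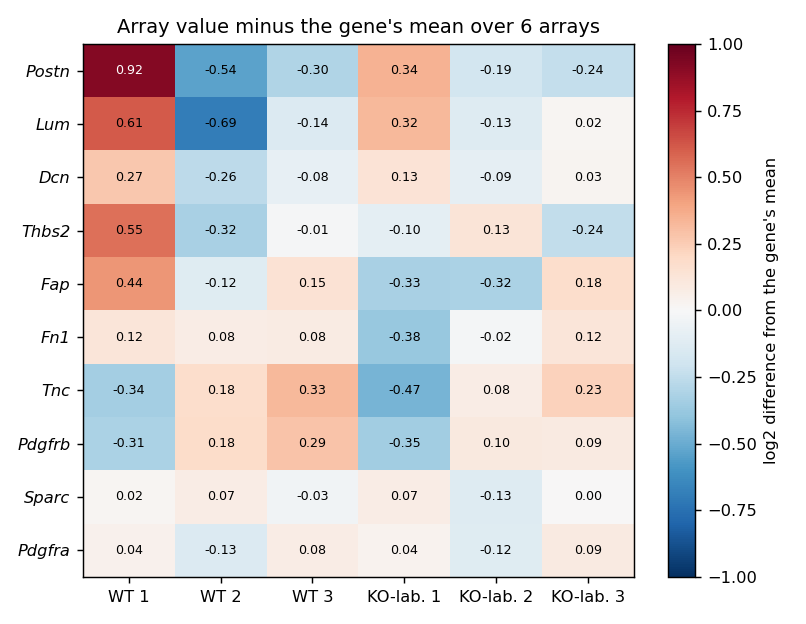
Value of each gene on each array minus its mean over the 6 arrays (log2; colour and number), genes in rows and arrays in columns. WT replicate 1 holds the highest values of Postn, Lum, Dcn, Thbs2 and Fap, and the columns of the 2 groups do not separate.

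The array that was left out decided how many members were lower. Of 10 genes, 7 were lower on all arrays, 10 without WT replicate 2, and 5 without WT replicate 1, WT replicate 3 or KO-labelled replicate 2. The median difference was -0.12, -0.00, -0.03 and -0.08 in these cases, against 0.0074, -0.0171, -0.0022 and -0.0022 over all genes. The share of all genes that were lower was not counted in these settings, and the members were read on the same arrays. The counts are therefore only a description. WT replicate 2 is the array with kidney transcripts, and its part in the members' values was not tested. Groups without overlap were seen for 3 genes without WT replicate 1 (Postn and Lum higher, Pdgfrb lower) and for 2 without KO-labelled replicate 3 (Fn1 and Fap, both lower). In those settings 32.4% and 33.7% of all genes had no overlap.

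Marker lists of the cells in a ureter put these values in context. The 12 fibroblast markers split into 5 higher and 7 lower in the KO-labelled group (median -0.05), with 0 at an unadjusted p under 0.05, and their list mean ran from -0.17 to 0.23 in WT and from -0.08 to 0.06 in KO-labelled ureters. Its highest and lowest arrays were again WT replicates 1 and 2. In WT replicates 1 and 2 the list mean was 0.23 and -0.17, close to the mean of the 10 members at 0.23 and -0.16. Of the 12 genes, 7 were higher in WT replicate 1 than in WT replicate 2, by up to 1.72 (Dpt). The other 5 were lower, by up to 0.14 (Thy1). Dpt and Thy1 were named after their values were seen. Pericyte markers were higher for 5 of 7 genes (median 0.10, or 0.04 without WT replicate 2), with 1 at an unadjusted p under 0.05.

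Lists of other cell types were compared in the same way, and 0 of their genes passed the adjusted test. All 10 smooth muscle markers (median 0.66) and 10 of 11 urothelial markers (median 0.88) were higher in the KO-labelled ureters, and 11 of 12 monocyte and macrophage markers were lower (median -0.54). At an unadjusted p under 0.05 stood 0, 4 and 9 of these, respectively, in the direction named, where 4.32% of all genes were called higher and 4.64% lower. The smooth muscle list mean was lowest in WT replicate 2 (-0.85) and the urothelial one too (-0.83). Without that array the medians were 0.31 for smooth muscle, with 9 of 10 higher, and 0.57 for urothelium, and that of the macrophage list was -0.47. All 6 mesothelial markers were higher (median 1.10, or 0.84 without WT replicate 2), 2 of them at an unadjusted p under 0.05, as were 6 of 8 endothelial markers (median 0.13) with 0 at that level. Of the 12 kidney markers 6 could be tested, with a median of -0.83 that was 0.02 without WT replicate 2, and Slc12a1 and Nphs1 were not well above background on any array. Adipocyte markers, like Postn and Lum, were high in WT replicate 1 (0.38) and low in WT replicate 2 (-0.23), but lowest in KO-labelled replicate 3 (-0.30). The part of any cell type in the members' values was not tested.

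**Figure D5:**
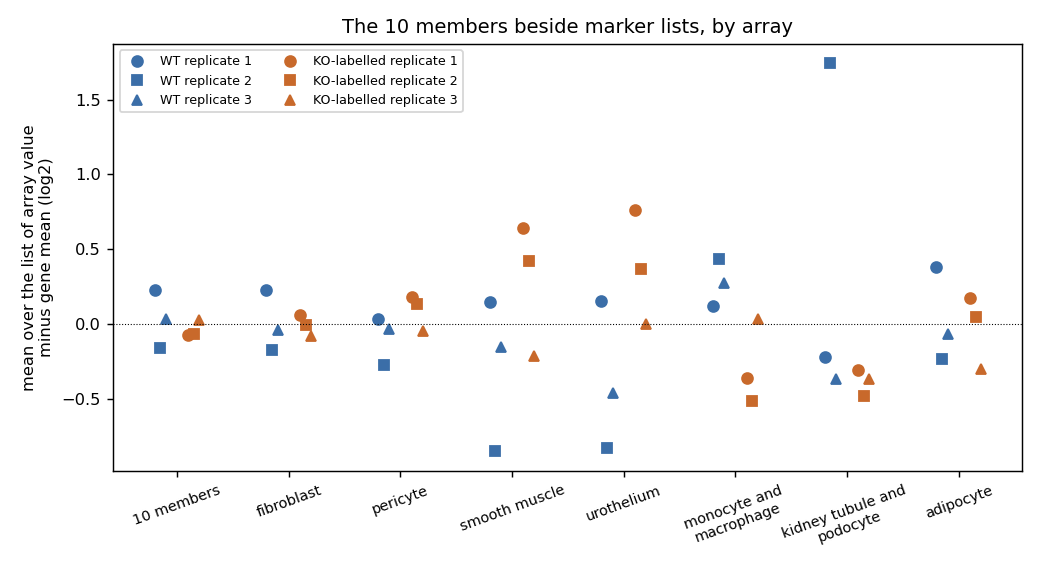
Mean over the genes of each list of the array value minus the gene's own mean (y axis, log2), for the 10 members and 7 marker lists, 1 point per array. The members lie between -0.16 and 0.23, WT replicate 2 stands at 1.74 for the kidney list, and urothelial and smooth muscle values of WT replicate 2 lie at -0.83 and -0.85.

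Related matrix genes held a few larger differences, though again 0 passed the adjusted test. Of 31 other matricellular and fibre glycoproteins, 18 were lower and 13 higher (median -0.10), and 3 had an unadjusted p under 0.05, all lower, where 4.64% of all genes were called lower at that level. They were Comp, a pentameric thrombospondin family protein of cartilage and tendon, at -0.92 ± 0.14, Smoc2, a relative of SPARC, at -0.50 ± 0.14, and Thbs4, another thrombospondin, at -1.62 ± 0.54 (limma, adjusted p = 0.378, 0.450 and 0.483). Comp stood at 2.97, 3.13 and 3.09 in WT and at 2.05, 1.97 and 2.40 in KO-labelled ureters, with a wide gap between the groups. Thbs4 stood at 0.25, -0.38 and -0.73 in WT and at -1.23, -3.12 and -1.37 in KO-labelled ureters. Ccn2, a target of TGF-beta and YAP signalling, was next at 0.69 ± 0.33 (adjusted p = 0.580). For Smoc2 the 3 probes ran from -0.58 to -0.06.

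Among 13 measured proteoglycans and hyaluronan synthases, 6 were lower and 7 higher, with a median of 0.01 and 0 at an unadjusted p under 0.05. Ogn and Aspn, relatives of decorin and lumican, differed by -0.58 ± 0.40 and -0.68 ± 0.61, Has1, a hyaluronan synthase, by 0.65 ± 0.62, and Chad by -0.25 ± 0.27. Their adjusted p-values in limma were 0.678 to 0.794. WT replicate 1 was the highest array for Ogn and Aspn and the lowest for Has1, and their differences leaned on it. In WT replicates 1 to 3 Ogn stood at 3.98, 2.37 and 3.02, Aspn at 0.74, -1.65 and -0.77, and Has1 at -2.02, 0.37 and 0.01. Chad ran from -5.10 to -4.00, near the lowest signals that cleared background (-5.21 to -5.02). Of 15 receptors for the matrix glycoproteins, 8 were higher and 7 lower, and 2 had an unadjusted p under 0.05, 1 in each direction, where 4.32% of all genes were called higher. Dpp4, the protease most closely related to Fap, stood at -1.26 ± 0.35, but its second probe differed by -0.16. Sdc1, a heparan sulphate proteoglycan of epithelia and plasma cells, was at 0.61 ± 0.20, with all 3 probes between 0.60 and 0.62 (adjusted p = 0.450 and 0.481). The integrin chains Itga4 and Itgb5 followed at -0.56 and -0.39 (adjusted p = 0.552 and 0.562).

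Promoters of 5 members (Postn, Tnc, Pdgfra, Sparc and Thbs2) were in the RefSeq table of GRCm38.p6. Those of Postn and Thbs2 are shown because these genes shared the pattern of a high WT replicate 1 and a low WT replicate 2. Each sequence holds the 250 bases before the start site on the strand of the gene, with matches to TATAAA or CCAAT on either strand in capitals. The arrays hold no measurement of these regions.
Postn, second start, plus strand, chr3:54360857-54361106: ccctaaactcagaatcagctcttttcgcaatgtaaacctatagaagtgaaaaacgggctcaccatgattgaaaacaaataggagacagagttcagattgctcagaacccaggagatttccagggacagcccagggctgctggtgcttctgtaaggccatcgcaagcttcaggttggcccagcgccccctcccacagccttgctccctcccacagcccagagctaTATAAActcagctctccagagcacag
Thbs2, minus strand, chr17:14694263-14694512: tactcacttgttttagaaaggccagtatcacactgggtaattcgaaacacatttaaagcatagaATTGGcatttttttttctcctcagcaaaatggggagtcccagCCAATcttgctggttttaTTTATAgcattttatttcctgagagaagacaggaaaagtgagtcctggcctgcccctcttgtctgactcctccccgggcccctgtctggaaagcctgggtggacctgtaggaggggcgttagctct
The Postn promoter printed has TATAAA with its first base at -26 from the start site and no CCAAT, while that of the other Postn start has CCAAT on the opposite strand at 25 and no TATAAA. The Thbs2 promoter has CCAAT at -144 and, on the opposite strand, at -186, and TATAAA on the opposite strand at -126. Both Tnc promoters, which overlap, have TATAAA, at -126 and -205 from their start sites, and no CCAAT. The promoters of Pdgfra and Sparc have neither motif. Of all 32851 promoters of 300 bases in the table, 13.6% hold TATAAA and 37.4% CCAAT. The AP-1 motif TGANTCA, found in 7.81% of all, was in 0 of the 7 member promoters. A match is a description of letters, not of a working site.

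The members' mean profile over the 6 arrays was compared with that of 16388 genes, by the root mean square difference of centred log2 values. The 5 closest were Pqlc3, Ndn, Ogt, Ipp and Gm21992, at 0.027 to 0.035, where the median gene was at 0.232. Of the members themselves, Pdgfra (0.096) and Dcn (0.107) lay closest to that mean, and Postn (0.405) and Tnc (0.352) furthest from it. With 6 arrays and this many genes, such closeness is only a description.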

How the data were processed

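Total RNA of 6 obstructed ureters was labelled with Cy3 and hybridised to 1-colour Agilent arrays, per the labels' protocols. The deposited intensity values came from Agilent Feature Extraction 12.0.3.1 per the file headers, which subtracted background and detrended each array. Probe positions refer to mm9. All arrays shared 1 slide and 1 scan time. Here, outlier spots of the 59305 non-control spots were dropped, spots of a probe averaged, and log2 processed signals centred on each array's 75th percentile. Kept were probes that cleared background on all arrays of at least 1 group (35069, 22 of 22 member probes). Gene names came from RefSeq accessions for 35405 of 56605 probes and otherwise from the files. KO-labelled minus WT was fitted per probe with limma 3.58.1 in R 4.3.3 and adjusted by Benjamini-Hochberg. For counts over genes the brightest probe stands for a gene. The procedure was tested on simulated data. Named genes are all member probes, Col17a1, up to 4 genes of each related list by smallest p, the PDGF ligands, and the 5 closest patterns; single markers and examples beyond this were chosen after their values were seen. Members and lists were chosen with earlier results of these data known. P-values judge each difference against the spread between these mice.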

Additional observations from a re-analysis of the deposited data

How the results depend on the processing

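Alternatives covered background, normalisation, filter, probe choice, variance model, array weights, a sex covariate, a replicate block and leaving out arrays. Over 330 values of the 22 probes under 15 alternatives, 0 passed the adjusted threshold, 16 had an unadjusted p under 0.05, and 43 had the sign opposite to the reported one. The alternatives for the filter, the variance model and the replicate block leave each probe's difference unchanged, so no sign could change there. The sex covariate gave the same differences as leaving out KO-labelled replicate 3. The share of changed signs is therefore no measure of how stable the signs are. With array weights (the iteration did not converge) 2544 probes passed in all and 4 member genes had an unadjusted p under 0.05, all lower (Fn1, Tnc, Fap and Pdgfrb), where 29% of all genes did. The weights of WT replicates 1 to 3 were 0.23, 0.72 and 8.60, so the weighted WT mean rested mostly on replicate 3. Between arrays of the same replicate number, correlations of deviations were 0.53, -0.15 and -0.03. With 3 arrays a group these cannot settle whether the numbers pair the samples. With the replicate block 1 probe passed, 0 of them a member. Without WT replicate 2 and KO replicate 3 together, 1 member gene had an unadjusted p under 0.05 (Fap, -0.61) and 3 had no overlap (Fn1, Fap and Pdgfra), against 41.2% of all genes. Leaving out each array gave 0 to 1 probes past the threshold, 0 to 3 member genes with no overlap, and a median of -0.117 to -0.00295.

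Signs changed in these cases, and the cause was not tested. With array weights, Fn1 A_51_P100856 was -0.0581, Postn 0.47, 0.43 and 0.40 at its 3 brighter probes, Sparc A_55_P2046812 0.0318, Pdgfra 0.19 at A_55_P2734892 and -0.0560 at A_51_P345649. With the sex covariate, which also removes the female animal, those Postn probes were 0.0944, 0.0841 and 0.0529 and Pdgfra A_51_P345649 -0.0362. Without WT replicate 2 and KO replicate 3, Fn1 A_51_P100856 was -0.0234, Postn A_55_P2716356 -0.15, Sparc A_55_P2713955 0.0480, Dcn -0.0713, Lum -0.14 and Pdgfra A_51_P345649 -0.10. Leaving out each array gave ranges that crossed 0 for Postn (-0.28 to 0.87, -0.28 to 0.46, -0.29 to 0.45 and -0.33 to 0.39 at its 4 probes from 5′ to 3′), Tnc A_51_P291438 (-0.31 to 0.10), Sparc A_55_P2046812 (-0.0844 to 0.0167) and A_55_P2713955 (-0.15 to 0.0794), Thbs2 (-0.34 to 0.10), Dcn (-0.0691 to 0.20), Lum (-0.17 to 0.49), Pdgfra A_55_P2734892 (-0.15 to 0.0818) and A_51_P345649 (-0.0569 to 0.0691), and Pdgfrb (-0.29 to 0.0443). Within arrays, the Fn1 offset from A_51_P100856 was -0.32 to -0.22, that from A_52_P237357 -0.0141 to 0.15, and that of Pdgfra from Pdgfrb -0.0532 to 0.32. For the marker lists, added after seeing the data, medians crossed 0 for fibroblast (-0.0969 to 0.0296), kidney (-1.09 to 0.0226), endothelium (-0.0503 to 0.22) and adipocyte markers (-0.15 to 0.0843). The number of arrays limits the precision.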
